A study of Mus musculus with 12 samples.

Results

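The Serpina1 and Serpina3 genes of the mouse were described in liver and duodenum after long exposure to corticosterone (CORT), the main glucocorticoid of mice. The 10 members were taken by gene name: Serpina1a, Serpina1b, Serpina1c, Serpina1d and Serpina1e, and Serpina3c, Serpina3g, Serpina3k, Serpina3m and Serpina3n, out of 55416 genes listed in each of the tables. Male C57BL6/J mice, 8 weeks old at the start and with no engineered allele in any group, were injected under the skin every day for 8 weeks with CORT at 40 mg/kg or with vehicle (Veh). RNA-seq was made from pieces of whole liver and of duodenum, with 12 libraries in all, 3 for each treatment in each tissue, labelled as biological replicates. In such bulk samples, fewer cells of a type and less RNA per cell cannot be told apart.

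Serpins are protease inhibitors that work once: the target protease cuts an exposed loop near the end of the serpin, the reactive centre loop, and is then trapped and inactivated on it. The sequence of this loop decides which proteases are caught. Alpha-1 antitrypsin, the human product of SERPINA1, is secreted by hepatocytes and protects tissue from neutrophil elastase, and the human SERPINA3 product, alpha-1 antichymotrypsin, acts on cathepsin G and related chymotrypsin-like enzymes. Each of these human genes corresponds to a group of neighbouring copies in the mouse. The products are plasma proteins made by the liver, and Serpina3n is known as a gene of the acute phase response that glucocorticoids and interleukin-6 raise together. Serpina3g is known instead as an inhibitor of cathepsins inside activated T cells and myeloid cells.

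Both groups of copies lie on chromosome 12. In the GENCODE M21 annotation of GRCm38, an older build than the GRCm39 named for the deposited tables, the Serpina1 copies span chr12:103728156-103958975, all on the minus strand, and the Serpina3 members span chr12:104146382-104414329. Serpina3c is on the minus strand and the other Serpina3 members are on the plus strand. The annotated span of Serpina1b holds the whole of Serpina1d, and that of Serpina3m holds the whole of Serpina3k, because a Serpina3m transcript begins at the first exon of Serpina3k.

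The coding sequences of the 5 Serpina1 copies were between 96.3% and 98.5% identical to each other. They differed at a higher rate per base in the reactive centre loop than outside it, so its 66 coding bases are shown for each copy, with capitals marking bases that differ from Serpina1a:
Serpina1a: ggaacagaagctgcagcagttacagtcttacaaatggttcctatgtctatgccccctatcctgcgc
Serpina1b: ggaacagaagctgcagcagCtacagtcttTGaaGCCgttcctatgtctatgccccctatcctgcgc
Serpina1c: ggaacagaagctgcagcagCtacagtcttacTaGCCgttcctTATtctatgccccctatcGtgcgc
Serpina1d: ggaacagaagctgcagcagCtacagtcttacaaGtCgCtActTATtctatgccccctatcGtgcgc
Serpina1e: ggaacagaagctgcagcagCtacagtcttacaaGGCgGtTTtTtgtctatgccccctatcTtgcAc

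Serpina1b differed from Serpina1a at 6 of these bases (9.09%), against 2.64% of the rest of the coding sequence. The loop of Serpina1e differed at 10 bases (15.2%), against 2.81% of the rest. Serpina1c, the copy closest to Serpina1a outside the loop with 0.85% of bases different, had 9 differences (13.6%) inside it.

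This likeness bears on every Serpina1 value below. A read of 150 bases, the read length of the study, cannot be assigned from its sequence alone where the same 150 bases occur in another gene. Among all such windows in the longest coding transcript of each member, 50.5% of those of Serpina1c, 40.7% of Serpina1a, 23.3% of Serpina1d, 16.4% of Serpina1b and 7.57% of Serpina1e also occurred in another Serpina1 copy or in the related gene Gm8893. Among the Serpina3 members the share was 0.262% for Serpina3k and 0.331% for Serpina3m, which shared windows with each other, and 0 for Serpina3c, Serpina3g and Serpina3n. The division of the Serpina1 signal among its copies is therefore an estimate of the authors' software, and paired reads carry more sequence than a single window does.

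**Figure D1:**
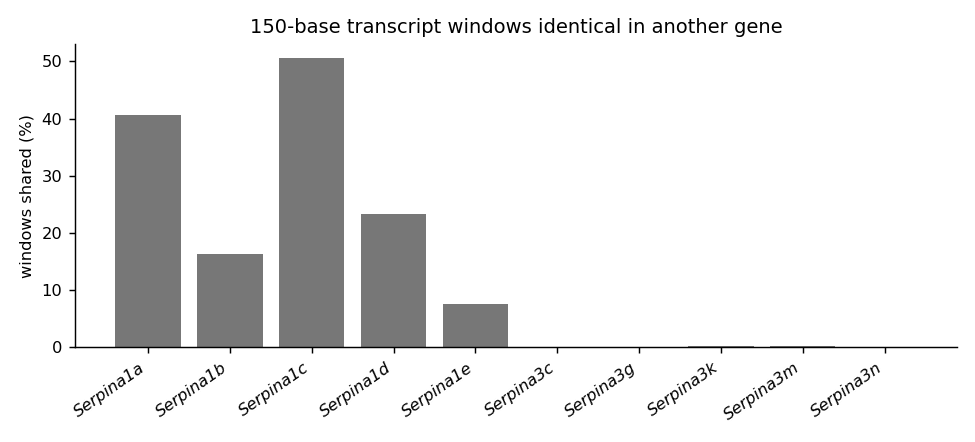
Percent of all 150-base windows in the transcript of each member (x axis, GENCODE M21) that occur identically in a transcript of another gene (y axis, percent). The bars for the Serpina1 copies run from 7.57% to 50.5%, and those for the Serpina3 members are at 0.331% or below.

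The Serpina3 members were less alike, with coding identities between 79.4% and 90.8%, the highest for Serpina3k with Serpina3m. The lowest, for Serpina3g with Serpina3k, covers only 654 aligned positions. The coding sequence used for Serpina3g has 747 bases, against 1254 to 1257 for the other members. Their loops are shown because they differ far more than those of the Serpina1 copies, with capitals marking bases that differ from Serpina3n after alignment:
Serpina3n: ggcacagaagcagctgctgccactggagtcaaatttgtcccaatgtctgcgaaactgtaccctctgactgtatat
Serpina3m: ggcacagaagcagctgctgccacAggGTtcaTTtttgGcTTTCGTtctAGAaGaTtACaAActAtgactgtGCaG
Serpina3k: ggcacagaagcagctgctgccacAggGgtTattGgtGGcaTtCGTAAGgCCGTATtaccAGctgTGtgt
Serpina3g: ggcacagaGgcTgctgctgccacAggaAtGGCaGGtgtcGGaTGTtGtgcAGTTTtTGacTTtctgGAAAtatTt

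Serpina3m differed from Serpina3n at 33.3% of loop bases against 13.6% of the rest, and Serpina3k at 33.3% against 16.3%. Serpina3g differed at 38.7% against 12.8%, the latter over only 576 bases. The pattern used to find the loop had no match in Serpina3c, so none is shown for it.

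Promoters were available for 8 of the 10 members in RefSeq (GRCm38.p6), with Serpina3k and Serpina3m missing. The 250 bases before the start of Serpina3c (chr12:104153873-104154122, minus strand) and Serpina3n (chr12:104406458-104406707, plus strand) are shown because both genes were higher in every CORT liver than in any Veh liver, and those of Serpina3g (chr12:104235897-104236146, plus strand) because its liver groups overlapped. Capitals mark matches, on either strand, to the glucocorticoid response element (GRE) pattern GNACA and TGTNC separated by any 3 bases. They also mark the GRE half-site AGAACA and the STAT pattern TTCNNNGAA:
Serpina3c: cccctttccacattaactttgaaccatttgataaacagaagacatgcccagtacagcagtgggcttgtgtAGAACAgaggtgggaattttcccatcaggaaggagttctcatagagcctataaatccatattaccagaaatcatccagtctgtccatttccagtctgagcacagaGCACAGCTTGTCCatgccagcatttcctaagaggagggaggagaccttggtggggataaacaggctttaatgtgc
Serpina3n: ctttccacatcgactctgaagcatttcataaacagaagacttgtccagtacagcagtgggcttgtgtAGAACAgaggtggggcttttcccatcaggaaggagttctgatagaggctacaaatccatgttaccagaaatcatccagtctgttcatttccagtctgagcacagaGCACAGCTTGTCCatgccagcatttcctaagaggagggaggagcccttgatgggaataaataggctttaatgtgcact
Serpina3g: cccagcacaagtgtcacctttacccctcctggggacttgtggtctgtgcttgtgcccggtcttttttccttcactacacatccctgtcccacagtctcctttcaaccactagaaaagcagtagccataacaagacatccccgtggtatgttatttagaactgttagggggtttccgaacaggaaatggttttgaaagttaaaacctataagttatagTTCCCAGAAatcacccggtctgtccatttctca

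The Serpina3c and Serpina3n windows were 92.7% identical over 247 aligned positions, and Serpina3g was 62.1% identical to Serpina3c and 59.6% to Serpina3n where they could be aligned. The full GRE pattern occurred in Serpina3c, 75 bases before the start, and in Serpina3n, 78 bases before it, and in none of the other 6 promoters. It occurred in 0.387% of 32851 mouse promoter windows of the same length. The half-site AGAACA, which occurred in 16.1% of all windows, was present in 7 of the 8, all but Serpina3g. The STAT pattern (7.02% of all windows) occurred among the 8 in Serpina3g alone, 33 bases before the start. The pattern GTTAAT, bound by the hepatocyte factor HNF1 (6.43% of all windows), was present in the 5 Serpina1 copies and in Serpina3c, and the C/EBP pattern TTGCNNAA (9.56%) in Serpina1b, Serpina1d and Serpina1e. The windows of the 5 Serpina1 copies were between 91.4% and 97% identical to each other where they could be aligned. Matches in windows so alike are not independent, so these counts cannot be set against the shares of all windows. All these matches describe letters and not binding.

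Expression was given in TPM, a level scaled for transcript length and for the total of each library, so sequencing depth is unknown and precision comes only from the 3 libraries of a group. Fkbp5, a direct glucocorticoid target used as control of the treatment, was at 7.14, 12.7 and 19.5 TPM in Veh livers and at 273, 249 and 221 TPM in CORT livers, and at 8.68 to 23.3 TPM in Veh and 252 to 379 TPM in CORT duodenum. In liver, Veh2 and CORT3 stood apart from the other 4 libraries on the second principal component, at -38.8 and -22.3 against 9.27 to 20.4. In duodenum, Veh1 was at 41.1 and CORT2 at -33.3 on that component, against -15.5 to 7.01 in the other 4. The 33 pancreatic acinar genes summed to 45362 and 37927 TPM in duodenum Veh2 and Veh3 and to between 2575 and 4316 TPM in the other 4 duodenum libraries. Hepatocyte markers summed to between 87597 and 120102 TPM in all livers, and absorptive enterocyte markers to between 19349 and 36309 TPM in all duodenum libraries.

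In liver, 3 of the 5 Serpina3 members and none of the 5 Serpina1 copies were called higher in CORT. Of the 3, Serpina3c passed the filter on low values (a group mean of 1 TPM or more in Veh or CORT) through its CORT group alone. Serpina3m rose 4.49-fold, Serpina3c 3.30-fold and Serpina3k 2.01-fold, on the log2(TPM + 1) scale. Serpina3n was higher in every CORT liver, by 3.998-fold, but its spread left it just outside the threshold, and Serpina3g did not differ beyond its spread. A gene was called when its fold change exceeded 1.5 and its adjusted p from limma was at most 0.05, which held for 6.92% of 11699 liver genes tested in either direction and for 4.91% in the direction of higher in CORT. All 10 members were tested, and 3 were called, all of them higher.

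**Figure D2:**
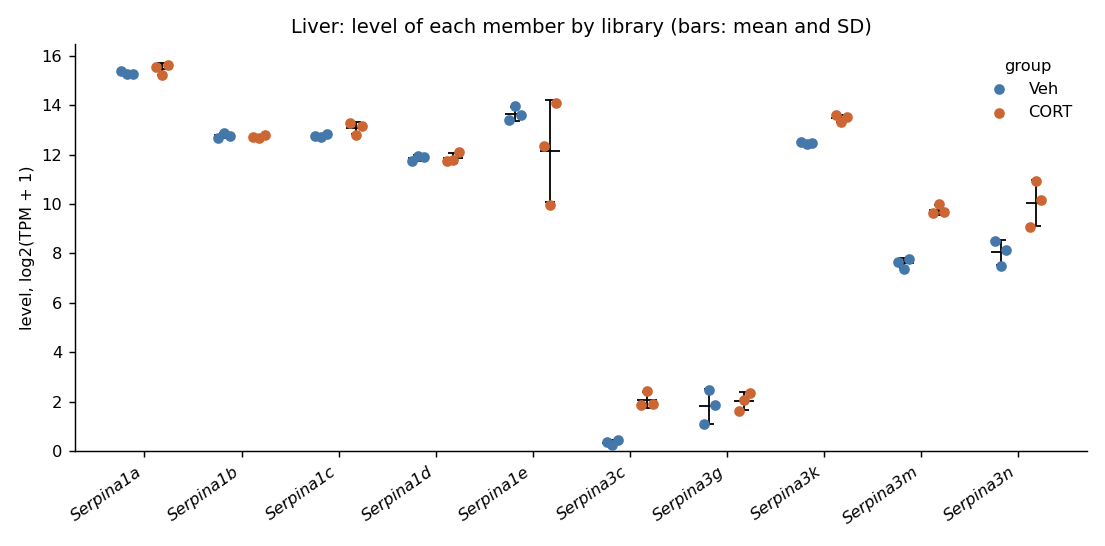
Level of each member in the 6 liver libraries, as log2(TPM + 1) on the y axis; each point is a library, and the bars give the mean and SD of 3 libraries. The CORT points of Serpina3c, Serpina3k, Serpina3m and Serpina3n lie above all Veh points, and the CORT points of Serpina1e are spread from 1005 to 17359 TPM.

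Serpina3m, a close copy of Serpina3k with a different loop, was at 202, 164 and 218 TPM in Veh livers and at 796, 1026 and 811 TPM in CORT livers. Each CORT library lay far above the highest Veh library. The difference was 2.17 ± 0.17 (SE) on the log2 scale (limma, adjusted p = 0.00187, n = 3 per group). Left without any one library, its log2 fold change stayed between 2.05 and 2.25 and its adjusted p reached at most 0.0113.

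Serpina3k, by far the most abundant member of its group in liver and also known as a serpin that binds tissue kallikrein, was at 5837, 5432 and 5629.6 TPM in Veh and at 12296, 10206 and 11607 TPM in CORT livers. The Veh libraries were close together, and the lowest CORT library stood well above all of them. CORT exceeded Veh by a log2 fold change of 1.01 ± 0.14 (SE; limma, adjusted p = 0.0102). The call was lost without Veh3 (adjusted p = 0.0605), without CORT1 (adjusted p = 0.0514) and with no filter on low values (adjusted p = 0.183), while the log2 fold change stayed between 0.95 and 1.09 over the omissions of a single library.

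Serpina3c was near the lower limit of the scale in Veh livers, at 0.29, 0.19 and 0.36 TPM, and at 2.68, 4.42 and 2.77 TPM in CORT livers. Its groups did not overlap, and the log2 fold change was 1.72 ± 0.22 (SE; limma, adjusted p = 0.00796). Because 1 TPM is added before the logarithm, this understates a change of so low a gene, whose mean TPM was 11.8 times higher in CORT. It entered the test through the CORT group alone.

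Serpina3n, the acute phase member, was at 363, 179 and 279 TPM in Veh and at 531, 1931 and 1140.4 TPM in CORT livers. The lowest CORT library exceeded the highest Veh library, but the CORT libraries were widely spread. This gave a log2 fold change of 2.00 ± 0.48 (SE) with a 95% interval from 0.87 to 3.12 (limma, adjusted p = 0.0535, above the threshold). Without CORT1, the lowest CORT library, it passed (log2 fold change 2.49, adjusted p = 0.0283). Serpina3g was at 1.13, 4.65 and 2.69 TPM in Veh and at 2.10, 3.26 and 4.09 TPM in CORT livers, with overlapping groups and a 95% interval of the log2 fold change from -0.67 to 1.07 (limma, adjusted p = 0.766).

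Summed over the 5 Serpina3 members, the level was 6404, 5780.1 and 6129 TPM in Veh and 13628, 13171 and 13566 TPM in CORT livers. The SD of the sum among CORT livers was 248 TPM, below that of Serpina3k alone (1065 TPM). Serpina3k made up 92.3% ± 1.47 (SD, n = 3) of the sum in Veh and 84.4% ± 6.44 in CORT livers. In CORT2, where Serpina3k was lowest among the CORT livers, Serpina3n and Serpina3m were highest, at 14.7% and 7.79% of the sum.

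The median log2 fold change of the Serpina3 members was 1.72, and that of all 11699 genes tested was 0.08. The 1.72 is the value of Serpina3c, which passed the filter through its CORT group alone, so the filter favoured a rise. Serpina3m was at 2.17, Serpina3n at 2.00, Serpina3k at 1.01 and Serpina3g at 0.20. Groups did not overlap for 4 of the 10 members, all of them Serpina3 members with Serpina3c among them, and for 32.2% of all liver genes tested. An exact two-sided permutation test of 3 against 3 cannot give less than p = 0.1, and it gave p = 0.1 for each of these 4. Of all liver calls, 71.0% were higher in CORT, and 53.7% were after scaling each library by the median ratio of its genes. Under that scaling Serpina3k stayed called (log2 fold change 0.91, adjusted p = 0.0296). Without Veh2 and CORT3 together, Serpina3m (2.10, adjusted p = 0.0206) and Serpina3c (1.75, adjusted p = 0.0404) stayed called and Serpina3k did not (0.97, adjusted p = 0.0522).

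Markers of hepatocytes and of other cells were summed beside these values. None of the 15 hepatocyte markers was called by limma, and 3 had an unadjusted p under 0.05. The 6 adipocyte markers summed to 6.49 to 21.5 TPM in Veh and to 52.0 to 138 TPM in CORT livers. Of the 6, 3 stayed under 1 TPM in every liver, 2 of these at 0. Only 2 were tested, and limma called 0 of them, with 2 at an unadjusted p under 0.05. The study reported hepatic steatosis in CORT-treated mice, and whether these transcripts came from adipocytes was not tested. The 9 T cell markers summed to 2.39 to 5.50 and 0.43 to 1.62 TPM, with 7 under 1 TPM in every liver. Sums of the 10 macrophage and Kupffer cell markers overlapped, at 164 to 203 TPM in Veh and 145 to 405 TPM in CORT. Those of the 8 neutrophil markers did too, at 5.79 to 22.8 and 0.99 to 34.4 TPM, with 4 under 1 TPM in every liver. The 10 absorptive enterocyte markers summed to 257 to 361 TPM in Veh and 734 to 4117 TPM in CORT livers. Of the 10, 5 stayed under 1 TPM in every liver, 1 of these at 0. The 2 called higher were the apolipoprotein gene Apoa4, which the liver also makes, and Treh. The part of these cells in the Serpina3 values was not tested.

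The Serpina1 copies, the mouse genes for alpha-1 antitrypsin, were among the most abundant transcripts of the liver in both groups. Together they made up between 5.63% and 9.04% of all TPM of a library. None of the 5 was called by limma and none had an unadjusted p under 0.05 (15.5% of all liver genes tested had one with a fold change over 1.5), and their median log2 fold change was 0.01. Their summed level was 70469, 72793 and 69698 TPM in Veh and 73148, 55635 and 88886 TPM in CORT livers, so the CORT libraries lay on both sides of the Veh libraries and were more spread.

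Serpina1a was at 42926, 38769 and 39433 TPM in Veh and at 47956, 37532.5 and 50973 TPM in CORT livers, and ranked between 1 and 3 among all genes of a library. Its log2 fold change was 0.16 with a 95% interval from -0.25 to 0.57 (limma, adjusted p = 0.592). Serpina1c was at 6896, 6757 and 7279 TPM in Veh and at 9936, 7094 and 9188 TPM in CORT, with a log2 fold change of 0.31 and an interval from -0.08 to 0.70 (limma, adjusted p = 0.287). Its CORT2 library fell among the Veh libraries.

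Serpina1b was at 6589, 7486.5 and 6923 TPM in Veh and at 6614, 6536 and 6987 TPM in CORT livers. The groups overlapped almost fully, and the 95% interval of the log2 fold change ran from -0.37 to 0.25 (limma, adjusted p = 0.807). Serpina1d, at 3382, 3969 and 3794 TPM in Veh and 3438, 3468 and 4379 TPM in CORT, had an interval from -0.35 to 0.38 (limma, adjusted p = 0.969).

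Serpina1e behaved differently from the other copies. It was at 10676, 15813 and 12269 TPM in Veh livers and at 5204, 1005 and 17359 TPM in CORT livers. The lowest and the highest of all 6 livers were both in the CORT group. The log2 fold change was -1.504 ± 0.914 (SE) with a 95% interval from -3.66 to 0.66 (limma, adjusted p = 0.348). Without CORT2 the log2 fold change was -0.42 and without CORT3 it was -2.48 (adjusted p = 0.0934), so its size rests on single CORT libraries. Veh2 and CORT3, which stood apart over all genes, had the 2 highest values, and without both the log2 fold change was -2.32 (adjusted p = 0.155). The 7 goblet cell markers summed to 347 and 426 TPM in these 2 libraries and to 21.9 to 66.5 TPM in the other 4 livers. Of the 7, 0 were at 0 throughout but 6 stayed under 1 TPM in every liver, so these sums are mostly the level of a single gene. The 6 smooth muscle markers summed to 11.6 and 7.66 TPM against 2.38 to 3.25 TPM, with 0 at 0 throughout and 3 under 1 TPM in every liver. Their part in the Serpina1e values was not tested.

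Shares of the copies in the Serpina1 sum differed among livers. Serpina1a made up 56.9% ± 3.84 (SD, n = 3) of the Serpina1 sum in Veh livers and 63.5% ± 5.38 in CORT livers. Serpina1e made up 15.2%, 21.7% and 17.6% in Veh and 7.11%, 1.81% and 19.5% in CORT livers. Serpina1b, Serpina1c and Serpina1d kept shares of 7.86% to 11.8%, 9.28% to 13.6% and 4.70% to 6.23% over the 6 livers. Serpina1e shares the fewest 150-base windows with the other copies.

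**Figure D3:**
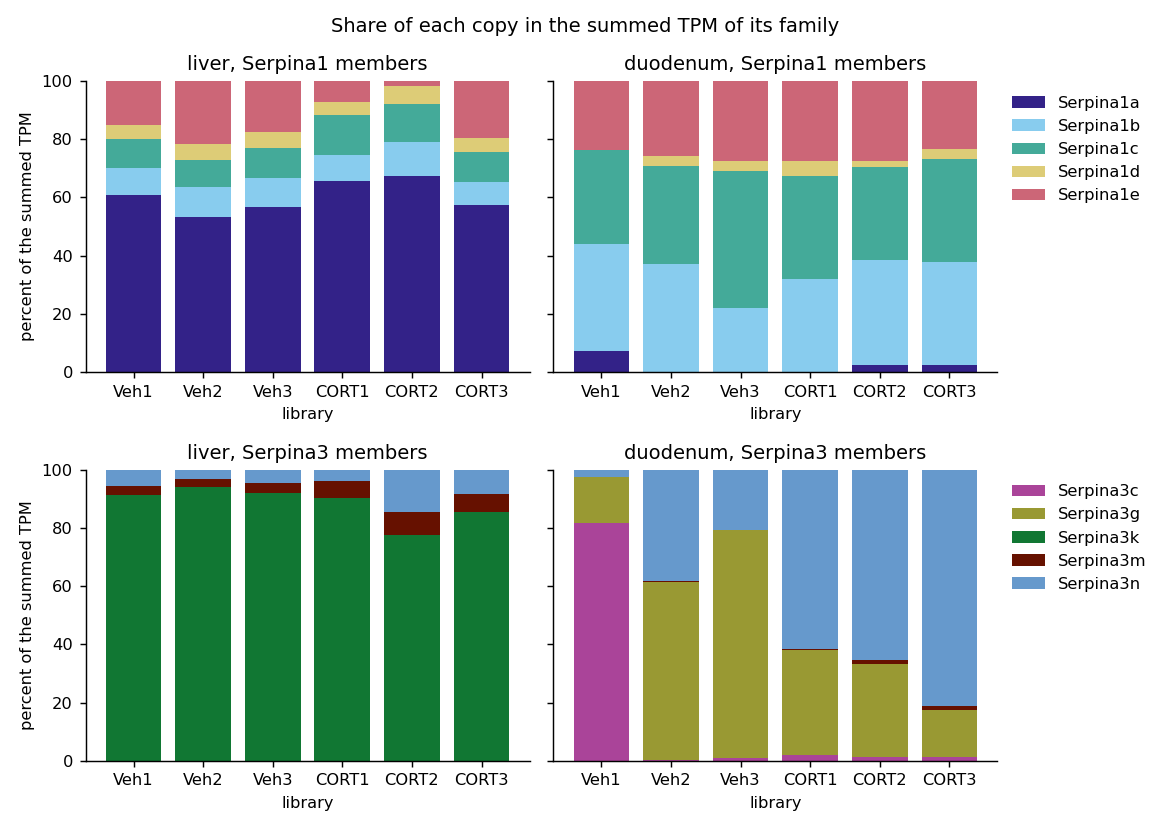
Percent of the summed TPM of each group of copies (y axis) held by each copy in each library (x axis), for liver (left) and duodenum (right). Serpina1a holds 53.3% to 67.5% of the Serpina1 sum in liver and at most 7.30% in duodenum, and Serpina3k holds most of the Serpina3 sum in liver and none in duodenum.

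In order of mean level, Veh livers ran from Serpina1a to Serpina1e, then Serpina1b and Serpina1c, whose libraries overlapped, then Serpina3k and Serpina1d. Serpina3n (274 ± 91.9 TPM, SD, n = 3) and Serpina3m (195 ± 27.3 TPM) followed at far lower levels and overlapped, and Serpina3g and Serpina3c were lowest. In CORT livers Serpina3k (11369.7 ± 1065 TPM) stood second to Serpina1a, above every library of Serpina1c, Serpina1b and Serpina1d, and its best rank among all genes of a library was 10. Serpina1e, at 1005 to 17359 TPM in CORT livers, spanned the range of Serpina3k, Serpina1c, Serpina1b and Serpina1d but stayed below Serpina1a. Serpina3n (1201 ± 702 TPM) overlapped with Serpina3m (878 ± 129 TPM), and Serpina3c (3.29 ± 0.98 TPM) with Serpina3g (3.15 ± 1.00 TPM).

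In duodenum, where the Serpina1 copies were at a few TPM or less, Serpina1e was called and rose 2.25-fold on the log2(TPM + 1) scale. On that scale Serpina1b and Serpina1c had fold changes of 2.51 and 2.29 that missed the threshold on adjusted p. The added 1 TPM lowers these fold changes at such levels. Mean TPM was 3.53, 3.76 and 3.26 times higher in CORT for Serpina1e, Serpina1b and Serpina1c. No Serpina3 member was called. The filter on low values kept 6 of the 10 members and left out Serpina1a, Serpina1d, Serpina3k and Serpina3m. Of 13607 duodenum genes tested, 2.15% were called in either direction and 1.23% in the direction of higher in CORT, and of the members tested 1 was called, in that direction.

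**Figure D4:**
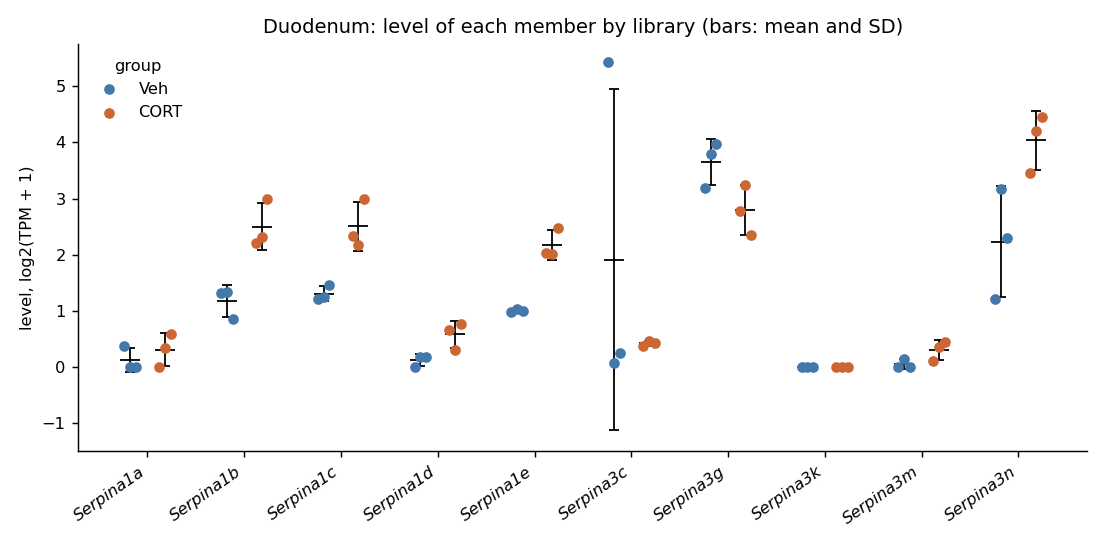
Level of each member in the 6 duodenum libraries, as log2(TPM + 1) on the y axis; each point is a library, and the bars give the mean and SD of 3 libraries. CORT points lie above all Veh points for Serpina1b, Serpina1c, Serpina1d, Serpina1e and Serpina3n, and a single Veh library, Veh1, holds the high value of Serpina3c at 41.9 TPM.

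Serpina1e was at 0.97, 1.06 and 1.01 TPM in Veh and at 3.11, 3.03 and 4.58 TPM in CORT duodenum. The Veh libraries were nearly equal and each CORT library was above 3 TPM. CORT exceeded Veh by a log2 fold change of 1.17 ± 0.19 (SE; limma, adjusted p = 0.0328). The call was lost whichever library was left out, with adjusted p between 0.0657 and 0.124 and log2 fold changes between 1.02 and 1.25. It entered the test through its CORT group and, with a mean of 1.01 TPM, narrowly through its Veh group.

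Serpina1b was at 1.51, 1.54 and 0.81 TPM in Veh and at 3.62, 3.98 and 6.92 TPM in CORT duodenum, with a log2 fold change of 1.33 ± 0.26 (SE; limma, adjusted p = 0.0559). Serpina1c was at 1.33, 1.39 and 1.74 TPM in Veh and at 4.05, 3.52 and 6.99 TPM in CORT, with a log2 fold change of 1.19 ± 0.24 (SE; limma, adjusted p = 0.0598). Both passed the threshold when 0.1 rather than 1 was added before the logarithm, with adjusted p of 0.0496 and 0.0455. CORT3 was the highest library for Serpina1b, Serpina1c, Serpina1d and Serpina1e alike.

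Serpina1d was at 0, 0.14 and 0.13 TPM in Veh and at 0.59, 0.24 and 0.71 TPM in CORT duodenum. Serpina1a, the leading copy of the liver, was listed at 0 in Veh2, Veh3 and CORT1 and was at 0.30, 0.26 and 0.50 TPM in Veh1, CORT2 and CORT3. Without the filter on low values, neither was called (limma, adjusted p = 0.241 for Serpina1d and 0.683 for Serpina1a). The sum of the 5 copies was 4.11, 4.13 and 3.69 TPM in Veh and 11.4, 11.03 and 19.7 TPM in CORT duodenum.

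In duodenum the Serpina1 sum was divided among other copies than in liver, which is given as a description. There Serpina1b, Serpina1c and Serpina1e made up 32.0%, 37.7% and 25.6% of the sum in Veh and 34.4%, 34.3% and 26.0% in CORT, and Serpina1a 2.43% and 1.63%. The hepatocyte marker Alb was at 0.13 to 0.39 TPM in all 6 duodenum libraries. Of the 15 hepatocyte markers, 11 stayed under 1 TPM in all of them, and 3 of these were at 0, Fga, Fgb and Fgg. The remaining markers were Ambp at 4.76 to 8.62 TPM, Ttr at 3.75 to 6.50 TPM, Apoh at 0.71 to 3.53 TPM and Serpinc1 at 0.30 to 2.09 TPM. The summed hepatocyte markers were at 11.4 to 17.99 TPM in Veh and 14.9 to 18.1 TPM in CORT. The tables of the tissues were made separately, and levels were not tested between them.

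Other markers whose sums did not overlap between the duodenum groups were those of absorptive enterocytes, whose 10 markers summed to 19349 to 28468 TPM in Veh and 31188 to 36309 TPM in CORT, and those of adipocytes, whose 6 markers summed to 152 to 171 and 257 to 343 TPM. The 10 enterocyte markers did not all move together: their median log2 fold change was 0.25, and that of Alpi was -0.49. None of the 10 was called by limma, and 3 had an unadjusted p under 0.05. Among the adipocyte markers 1 was called higher, Fabp4. The part of these cells was not tested. Removing the acinar genes and rescaling left Serpina1e called (log2 fold change 1.15, adjusted p = 0.0327). With Veh2 and Veh3, the libraries high in acinar genes, left out, its log2 fold change was 1.20 (adjusted p = 0.341) with Veh1 as the only Veh library.

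Among the Serpina3 members in duodenum, Serpina3n had the largest difference, at 1.32, 8.05 and 3.94 TPM in Veh and 9.95, 17.4 and 20.9 TPM in CORT. The groups did not overlap, although Veh2 came close to CORT1, and the log2 fold change was 1.80 ± 0.50 (SE; 95% interval 0.63 to 2.98; limma, adjusted p = 0.122, unadjusted p = 0.00844). Serpina3g, the member of immune cells, was at 8.15, 12.9 and 14.8 TPM in Veh and at 5.84, 8.48 and 4.13 TPM in CORT, with a log2 fold change of -0.86 ± 0.28 (SE; limma, adjusted p = 0.173, unadjusted p = 0.0190). The 9 T cell markers summed to 79.1, 114 and 119 TPM in the Veh libraries and to 75.3, 92.6 and 78.4 TPM in the CORT libraries, and limma called none of them, with 1 at an unadjusted p under 0.05.

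Serpina3c was at 41.9 TPM in Veh1 and at 0.05 and 0.19 TPM in the other Veh libraries, against 0.30, 0.38 and 0.34 TPM in CORT. Its log2 fold change of -1.49 (limma, adjusted p = 0.572) rests on Veh1, without which Serpina3c fell below the filter. With Veh1 as the only Veh library it was called as lower in CORT (log2 fold change -5.002, adjusted p = 0.0340), which is the value of that library. Serpina3k was listed at 0 in all 6 duodenum libraries, and Serpina3m was at 0.37 TPM or less. The Serpina3 sum of 51.4, 21.1 and 18.9 TPM in Veh and 16.2, 26.5 and 25.8 TPM in CORT includes the high Veh1 value of Serpina3c. Serpina3n made up 2.57%, 38.1% and 20.9% of it in Veh and 61.5%, 65.5% and 81.2% in CORT.

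Of the 6 members tested in duodenum, 4 had groups that did not overlap, all with CORT above Veh, against 26.4% of all genes tested. An unadjusted p under 0.05 with a fold change over 1.5 was found for 5 of the 6, and for 10.3% of all genes tested. The median log2 fold change was 1.19 over the tested Serpina1 copies and -0.01 over all tested genes. The filter left out 4 members, so these counts do not describe all 10.

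**Figure D5:**
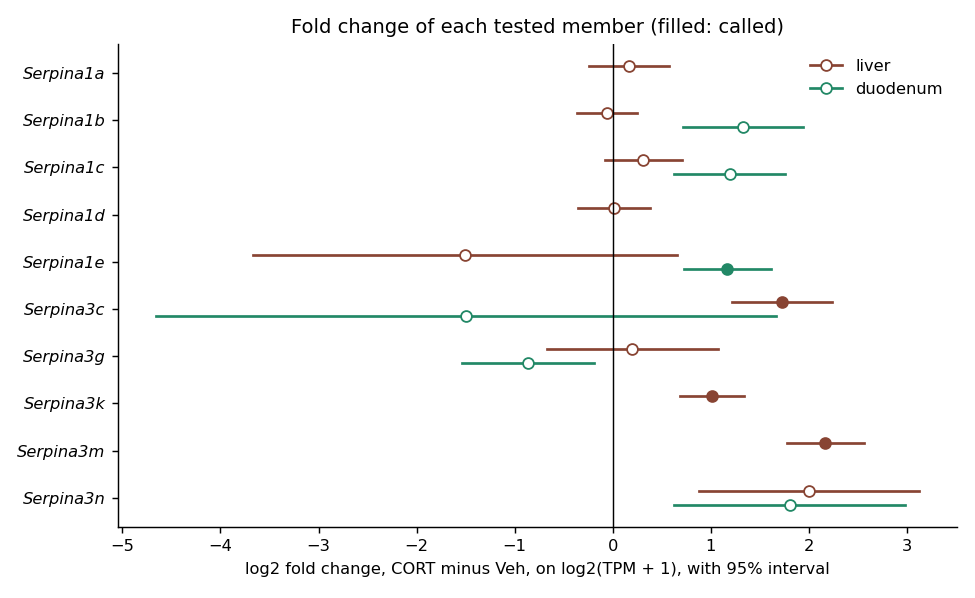
Log2 fold change of each tested member on the log2(TPM + 1) scale (x axis, CORT minus Veh) with its 95% interval, in liver and duodenum; filled points were called. Serpina3c, Serpina3k and Serpina3m in liver and Serpina1e in duodenum are filled, and the intervals of Serpina1e in liver and Serpina3c in duodenum are the widest.

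Whether the response to CORT differed between the tissues was tested with a treatment-by-tissue term for the 6 members measured in both. Over 10500 genes, 3.00% had such a term called (adjusted p at most 0.05), and 1 of the 6 members did. Serpina1b had a log2 fold change of -0.06 in liver and 1.33 in duodenum, a difference of -1.39 ± 0.28 (SE; liver minus duodenum; limma, adjusted p = 0.0201). The call was lost without liver CORT1 (adjusted p = 0.0522) and without duodenum Veh3 (adjusted p = 0.0514). The fit treats the 12 libraries as independent. The labels do not say whether same-numbered liver and duodenum libraries share a mouse, and with a block by animal the call was lost too (adjusted p = 0.191).

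Serpina1e had the largest difference in size among the Serpina1 copies, -2.67 with a 95% interval from -4.84 to -0.50, but an adjusted p of 0.185 (limma). It was called without liver CORT3 (-3.65, adjusted p = 0.0159), the library with the highest Serpina1e level. Serpina1c had a difference of -0.88 (limma, adjusted p = 0.118). For Serpina3n the fold changes of 2.00 in liver and 1.80 in duodenum differed by 0.20 with an interval from -1.41 to 1.80 (limma, adjusted p = 0.923), wide enough to hide a difference of either sign. Serpina3c and Serpina3g had differences of 3.22 and 1.06 (limma, adjusted p = 0.278 and 0.292), the former resting on duodenum Veh1. Over all genes, 61.3% of called terms were higher in liver, and 45.8% were after median-ratio scaling, under which the term of Serpina1b was -1.48 (adjusted p = 0.0123).

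Among 16 other clade A serpins of the same family, 8 were tested in liver and 1 was called, against 6.92% of all liver genes tested. Serpina5, the protein C inhibitor, was at 0.07, 0 and 0.18 TPM in Veh and at 4.45, 4.40 and 12.3 TPM in CORT livers, a rise of 2.76 ± 0.36 (SE) on the log2 scale (limma, adjusted p = 0.00907). It passed the filter on low values through its CORT group alone, and its log2 fold change was 5.24 when 0.1 rather than 1 was added before the logarithm. The median log2 fold change of the 8 was -0.14. In duodenum 2 were tested and limma called 0, with 1 at an unadjusted p under 0.05. Of 18 serpins of other clades, 12 were tested in liver and 1 was called, Serpine2, an inhibitor of thrombin and plasminogen activators, which was at 4.42 to 8.80 TPM in Veh and 38.5 to 103 TPM in CORT livers (log2 fold change 3.38 ± 0.39, SE; limma, adjusted p = 0.00626). In duodenum 11 were tested and limma called 0, with 1 at an unadjusted p under 0.05.

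Of 19 proteases that clade A serpins can inhibit, 8 were tested in liver. Of these 8, 2 were called lower in CORT and 0 higher, against 6.92% of all liver genes tested called in either direction. These were Klkb1, plasma prekallikrein, at 50.7 to 63.0 TPM in Veh and 20.9 to 33.6 TPM in CORT (log2 fold change -0.96, limma, adjusted p = 0.0375), and F11, coagulation factor XI (log2 fold change -0.62, limma, adjusted p = 0.0478). Both are made by hepatocytes, and both calls were lost whichever liver library was left out. In duodenum 11 of these proteases were tested, and limma called 0 and gave 0 an unadjusted p under 0.05.

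The 17 regulators of hepatic Serpina1 and Serpina3 transcription were all tested in liver. There 4 were called higher (4.91% of all liver genes tested were) and 0 lower. The median log2 fold change was 0.17. The 3 with the smallest adjusted p were Il1r1, an interleukin-1 receptor (log2 fold change 1.79, limma, adjusted p = 0.0195), Hnf4a, a hepatocyte transcription factor (0.86, adjusted p = 0.0211), and Il6ra, the interleukin-6 receptor (1.41, adjusted p = 0.0232). In duodenum 16 were tested and limma called 0, with 4 at an unadjusted p under 0.05 at any fold change. Of all duodenum genes tested, 10.3% had one together with a fold change over 1.5. This limit was not put on the 4, so the count and the share cannot be compared.

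Of 22 acute phase plasma proteins, 21 were tested in liver, with a median log2 fold change of 0.58. Of the 21, 4 were called higher (4.91% of all liver genes tested were) and 0 lower. Lcn2, lipocalin-2, was at 111, 14.3 and 16.1 TPM in Veh and at 1119, 3206 and 2728 TPM in CORT livers (log2 fold change 6.12, limma, adjusted p = 0.00881). Lbp, the lipopolysaccharide binding protein, and Hp, haptoglobin, had log2 fold changes of 1.39 and 1.35 (limma, adjusted p = 0.0211 and 0.0342). In duodenum 7 were tested and 1 was called, against 2.15% of all duodenum genes tested. This was again Lcn2, at 1.12 to 2.58 TPM in Veh and 51.8 to 75.5 TPM in CORT (log2 fold change 4.36, limma, adjusted p = 0.00309).

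Of 20 genes of secretory quality control, which fold, export or degrade alpha-1 antitrypsin in the endoplasmic reticulum, all were tested in liver. Of the 20, 4 were called higher (4.91% of all liver genes tested were) and 0 lower, with a median log2 fold change of 0.17. The 3 with the smallest adjusted p were Edem3, a mannosidase of misfolded glycoproteins (0.76, limma, adjusted p = 0.0184), Sec24a (0.78, adjusted p = 0.0312) and Sec24d (0.91, adjusted p = 0.0343), both subunits of the coat that carries cargo out of the endoplasmic reticulum. In duodenum all 20 were tested and limma called 0, with 6 at an unadjusted p under 0.05 at any fold change. Of all duodenum genes tested, 10.3% had one together with a fold change over 1.5. This limit was not put on the 6, so the count and the share cannot be compared. Of the 17 genes called in liver over all these lists, control genes included, 4 stayed called whichever library was left out. They were Fkbp5, Lcn2, Serpine2 and Serpina5, the last of which passed the filter through its CORT group alone. Of the 3 control genes, Fkbp5, Tsc22d3 and Per1, limma called only Fkbp5 in liver, where all 3 had an unadjusted p under 0.05. In duodenum it called Fkbp5 and Tsc22d3 (log2 fold change 2.01, adjusted p = 0.0185), and Per1 had no unadjusted p under 0.05. The Tsc22d3 call was lost in 3 of 6 omissions of a single library.

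Over the 6 livers, the genes whose level followed Serpina3k most closely were Cipc (Pearson r = 0.9995) and BB123696 (r = 0.9975). For Serpina3m they were E030018B13Rik (r = 0.9965) and Sesn2 (r = 0.9963), and for Serpina3c they were Fam167b (r = 0.9972) and Gm30173 (r = 0.9963). Over the 6 duodenum libraries, Acot1 (r = 0.9982) and Zbtb43 (r = 0.9954) followed Serpina1e. Such values describe 6 libraries that fall into 2 groups, and between 125 and 307 genes had r above 0.95 with each of these members.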

How the data were processed

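RNA was extracted from 50 mg of frozen tissue per sample and sequenced as paired reads of 150 bases. Trimming by SeqPrep and Sickle, alignment by HISAT2 in orientation mode, assembly by StringTie and quantification by RSEM were done by the authors. The submitters' processing notes name GRCm39. The deposited tables give TPM for every gene in every library separately, and these sum to between 983327 and 997319 per library. Versions of these tools are not given in the sources used here. The authors called changed genes with DESeq2, and no value of theirs was used.

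Starting from the deposited TPM, log2(TPM + 1) was computed keeping genes whose mean reached 1 TPM in Veh or in CORT. Separate fits for liver and duodenum, with no term but treatment, were made in R 4.3.3 with limma 3.58.1 (moderated with a mean-variance trend). Benjamini-Hochberg adjustment covered all genes tested, and a call needed a fold change above 1.5 with adjusted p at most 0.05. The treatment-by-tissue term was fitted on both tables joined by gene identifier, with genes passing the filter in both tissues, and called on adjusted p alone. The fits were tested on simulated data. TPM holds no depth, so neither counting intervals nor detection limits can be given. RSEM divides reads shared by similar copies among them by estimation. Sums over copies carry no test.

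The members and lists were chosen with earlier results of these data known. All 10 members are named in both tissues. Of each list, up to 3 called genes per tissue with the smallest adjusted p are named, with every other called clade A serpin, the 2 genes of highest Pearson r with each called member, and Fkbp5 as control. Alternatives were another pseudocount, no filter, median-ratio scaling, no trend, a replicate block, other limits for calling, acinar genes removed, and libraries left out. Gene spans, transcripts and coding sequences are from GENCODE M21 (GRCm38) and promoters from RefSeq (GRCm38.p6).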

Additional observations from a re-analysis of the deposited data

Results flagged for a closer look

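Serpina1b is listed here because its response differed between the tissues by a test of the difference itself. The treatment-by-tissue term was -1.39 (log2 fold change in liver minus that in duodenum; limma, adjusted p = 0.0201), from -0.06 in liver and 1.33 in duodenum, and adjusted p ran from 0.0123 to 0.191 over the alternatives. The highest of these came with a block by animal, under which the call was lost, and the labels do not say whether same-numbered libraries share a mouse. All 3 CORT duodenum libraries were above all 3 Veh libraries, and the liver groups overlapped. In duodenum Serpina1b was at only 0.81 to 1.54 TPM in Veh and was not called itself (limma, adjusted p = 0.0559). Of its 150-base windows, 16.4% also occurred in another gene, so its level is partly an estimate. The terms of Serpina1c and Serpina1e were -0.88 and -2.67 and were not called (limma, adjusted p = 0.118 and 0.185).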

How the results depend on the processing

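Sequencing depth is unknown, and 3 libraries per group set the precision. In liver, 3 members were called, and between 2 and 4 were under the alternatives, including 2 when Veh2 and CORT3 were left out together, a choice made after seeing the data. In duodenum 1 member was called. This became 3 with a pseudocount of 0.1, 0 with no filter on low values, 5 by unadjusted p, 0 for each library left out (from 0 to 0), and 1 with the Veh libraries high in acinar genes left out, which was then Serpina3c as lower in CORT. For the treatment-by-tissue term 1 member was called, 2 with no filter on low values and from 0 to 2 with a library left out. Same-numbered libraries did not deviate together (correlations from -0.133 to 0.102). With a replicate block, 2 members were called in liver (Serpina3k was not, adjusted p = 0.0547), 0 in duodenum and 1 for the term, and 0 with a block by animal for the term. Values near 0 changed sign. The log2 fold change of Serpina1d in liver was -0.0837 under median-ratio scaling, -0.0529 without Veh2 and CORT3, and from -0.102 to 0.0722 with a library left out. That of Serpina3g in liver ran from -0.17 to 0.54 with a library left out. The term of Serpina3n was -0.10 with a pseudocount of 0.1 and from -0.28 to 0.71 with a library left out. The cause was not tested. Of 336 values of the tested members under an alternative, 298 kept their direction and their side of the threshold and 10 changed sign.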

Other observations

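In duodenum, Serpina3c was one of 9 genes with at least 5 TPM in Veh1 and at most 0.5 TPM in each of the other 5 libraries, a rule set after its value was seen. At 41.9 TPM it was the highest of them. The others had between 6.86 and 27.6 TPM in Veh1, among them Gm29571 at 26.2 TPM, Snora73b at 27.6 TPM and Tma7-ps at 10.6 TPM. The adipocyte gene Adipoq was at 0.81 TPM in Veh1 and at 0.05 and 0 TPM in Veh2 and Veh3. Plin1 was at 0.32 TPM against 0.12 and 0 TPM, and the summed adipocyte markers were at 163 TPM against 171 and 152 TPM. In CORT1, CORT2 and CORT3, Adipoq was at 0.78, 0 and 3.02 TPM and Plin1 at 0.17, 0 and 1.15 TPM. Serpina3c was at 0.30, 0.38 and 0.34 TPM in these CORT libraries. The part of adipocytes in the Serpina3c values was not tested.

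In liver, Serpina12 (vaspin), another clade A serpin, was at 1.23 TPM in Veh2 and 0.26 TPM in CORT3, and at 13.7 to 24.2 TPM in the other 4 livers. These are the libraries with the highest levels of Serpina1e, at 15813 and 17359 TPM. Serpina12 was chosen after its values were seen, and its groups overlapped (limma, adjusted p = 0.851). Serpina9 was at 2.30, 1.51 and 0.89 TPM in Veh and 0.09, 0 and 0.32 TPM in CORT livers, a log2 fold change of -1.15 that missed the threshold (limma, adjusted p = 0.0555). Serpina6, which encodes the corticosteroid-binding globulin of plasma, was at 95.8, 374 and 117 TPM in Veh and 102, 85.6 and 164 TPM in CORT livers, with overlapping groups (limma, adjusted p = 0.569).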
